A study of Mus musculus with 32 samples.

Results

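The livers of female Cyp2b-null and wildtype (WT) mice fed a normal diet (ND) were compared by RNA sequencing. The members are 8 of the 32 libraries of the study, 4 from Cyp2b-null females and 4 from WT females, chosen by the genotype, diet and sex in their labels and by no measured value. The study asked how the loss of hepatic Cyp2b bears on fatty liver disease, and it also sequenced females on a choline-deficient, amino acid-defined high fat diet (CDAHFD) and males on both diets. The ND comparison is therefore the effect of the genotype without the disease diet. All mice were 10 weeks old when the diets began and were fed them for 8 weeks. The Cyp2b-null line was engineered with CRISPR/Cas9 in C57Bl/6J mice and lacks Cyp2b9, Cyp2b10 and Cyp2b13. The WT mice, given as C57BL/6 in the labels, were bought from The Jackson Laboratory, and no source used here states that they were littermates of the null mice. An effect of the deletion and an effect of the separate breeding of the lines cannot be told apart.

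Cytochrome P450 enzymes of the Cyp2b subfamily sit in the endoplasmic reticulum of hepatocytes and oxidize drugs, pesticides, steroids and unsaturated fatty acids. In mouse liver, Cyp2b10 is the classic target of the constitutive androstane receptor (CAR), and Cyp2b9 and Cyp2b13 are female-predominant genes that growth hormone secretion keeps low in males. The genes lie on chromosome 7 among Cyp2a, Cyp2f, Cyp2g, Cyp2s and Cyp2t genes.

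The windows around the starts of the deleted genes are shown because Cyp2b9 and Cyp2b13 were both expressed far more in WT females than in WT males, as given below. Each is the 300-base RefSeq promoter window of the gene, 5′ to 3′ on the plus strand of GRCm38.p6, Cyp2b9 at chr7:26173159-26173458, Cyp2b13 at chr7:26061245-26061544 and Cyp2b10 at chr7:25897408-25897707. The transcript start that places a window need not be the start of the whole gene given below. Measured from those gene starts, the windows of Cyp2b9 and Cyp2b13 reach further into the gene than that of Cyp2b10. In sequence, however, all the windows end at nearly the same place. Capitals mark the 2 positions at which Cyp2b9 and Cyp2b13 differ.
Cyp2b9: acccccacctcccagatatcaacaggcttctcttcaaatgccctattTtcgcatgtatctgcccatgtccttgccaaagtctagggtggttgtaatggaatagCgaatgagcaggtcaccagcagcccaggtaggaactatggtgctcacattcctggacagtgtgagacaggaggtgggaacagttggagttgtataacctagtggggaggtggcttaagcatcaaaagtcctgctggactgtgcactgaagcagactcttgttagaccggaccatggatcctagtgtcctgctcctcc
Cyp2b13: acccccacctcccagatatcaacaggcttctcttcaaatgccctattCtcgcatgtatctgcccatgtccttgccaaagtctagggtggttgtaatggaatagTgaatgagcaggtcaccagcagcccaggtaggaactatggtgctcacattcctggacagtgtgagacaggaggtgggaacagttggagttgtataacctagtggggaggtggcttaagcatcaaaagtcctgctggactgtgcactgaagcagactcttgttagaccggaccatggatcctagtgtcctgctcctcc
Cyp2b10: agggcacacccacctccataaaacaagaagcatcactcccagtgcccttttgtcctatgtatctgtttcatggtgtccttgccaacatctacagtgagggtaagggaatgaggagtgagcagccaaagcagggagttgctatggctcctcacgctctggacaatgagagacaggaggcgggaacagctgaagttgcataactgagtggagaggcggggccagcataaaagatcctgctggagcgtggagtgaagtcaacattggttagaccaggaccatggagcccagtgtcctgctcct
Cyp2b9 and Cyp2b13 had the same base at 298 of 300 positions (99.3%). Counted from 1 at the 5′ end of the window, with the base of Cyp2b9 first, the substitutions were T48C and C104T. Cyp2b10 was identical to either at 230 of 314 aligned positions (73.2%). The nuclear receptor half-site AGGTCA, searched on both strands, occurred 1 time each in the Cyp2b9 and Cyp2b13 windows and 0 times in the Cyp2b10 window. It occurred in 16.3% of the 32851 mouse windows of the same length.

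Depth on genes ran from 2906411 to 6563183 counts in the 8 libraries, and 16331 to 18081 genes had a count. Levels are given as counts per 1000000 (CPM) after TMM scaling, and 3 counts, taken as the floor of detection, were worth 0.506 to 1.17 CPM. The floor covers counting error only. The mitochondrial share of counts, 0.273% to 0.413%, overlapped between genotypes. The share of counts on the ribosomal RNA entry Rn18s-rs5 did not, at 0.373% to 0.922% in WT livers against 0.092% to 0.231% in the null ones. On the first principal component (27.9% of the variance), WT libraries 1 to 4 lay at -4.833, 6.496, -23.198 and -14.45. Cyp2b-null libraries 1 to 4 lay at 1.925, 16.555, 2.62 and 14.887 there, and WT library 2 was within their range. On the second component (21.6%), WT library 2 stood apart at 24.92, and the other 7 libraries lay between -12.832 and 4.389. Xist ranged from 500 to 699 CPM in WT against 437 to 497 CPM in null livers, and the Y-linked genes listed had at most 2 counts in any of the 8. The summed CPM of the hepatocyte markers was 137500 to 206700 in WT against 147000 to 179900 in null livers, with every defining marker in the table detected. Summed markers of Kupffer cells, sinusoidal endothelium, stellate cells, cholangiocytes, lymphocytes, neutrophils, erythroid cells and adipocytes overlapped between the genotypes, and 8 of 10 pancreatic acinar markers were at 0. In whole liver, fewer cells of a type and less RNA per cell cannot be told apart.

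Of 13226 genes tested with edgeR's quasi-likelihood test, 7 were called at a Benjamini-Hochberg adjusted p-value under 0.05 (0.0529%). The levels of 5 genes fell in Cyp2b-null females (0.0378% of genes tested), namely the 3 deleted genes, Ankrd60 and Baiap2. The levels of 2 genes rose (0.0151%), Abhd17b and Gpr146. A further view without the adjustment had 744 genes at an unadjusted p-value under 0.05 (5.63%), 331 higher and 413 lower. The 4 Cyp2b-null values did not overlap the 4 WT values for 481 genes (3.64%), 249 higher and 232 lower, and all 7 called genes were among them. Over all genes tested the median log2 fold change was -0.01, and 48.2% of genes were higher. The p-values measure the spread between libraries of a group, estimated over all 16 female libraries, of which 8 were fed CDAHFD.

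**Figure D1:**
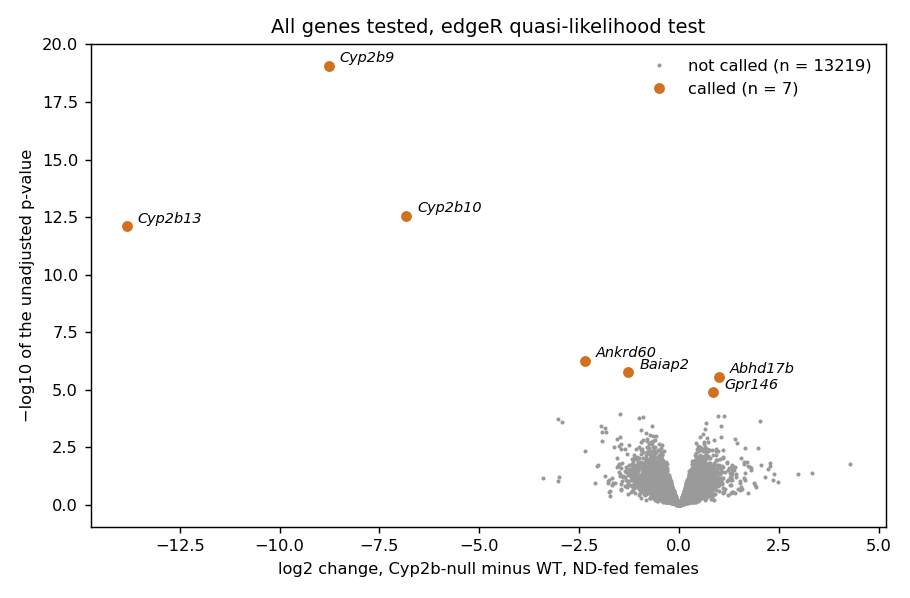
Each point is 1 of the 13226 genes tested in ND-fed females, with the log2 fold change of Cyp2b-null over WT on the x axis and -log10 of the unadjusted p-value on the y axis. The 7 called genes are coloured and named, and the position of Cyp2b13, which had 0 counts in every Cyp2b-null library, depends on the small count added in the fit.

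The deletion was read in every library. Cyp2b9 (chr7:26173350-26210661, plus strand), a female-predominant steroid and fatty acid oxidizing P450, stood at 615.3, 534.2, 597.9 and 611.2 CPM in WT libraries 1 to 4 and at 1.214, 1.602, 1.95 and 0.8438 CPM in Cyp2b-null libraries 1 to 4. The groups were far apart, and the residual signal in the null livers was 4 to 8 counts per library, just above the floor. The log2 fold change was -8.77 (SE 0.30, edgeR adjusted p = 1.14e-15), from 589.7 ± 37.7 to 1.40 ± 0.479 CPM (SD, n = 4 each).

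Cyp2b10 (chr7:25897658-25926624, plus strand), the CAR target, stood at 78.21, 74.04, 72.2 and 65.11 CPM in WT and at 0.3035, 0.4005, 2.34 and 0.1688 CPM in Cyp2b-null libraries 1 to 4. All WT libraries lay close together, and Cyp2b-null library 3 was the only null library over the floor, with 6 counts against 1 or 2 in the others. The log2 fold change was -6.83 (SE 0.42, edgeR adjusted p = 1.84e-09), and without Cyp2b-null library 3 it was -7.88, so its size, unlike its direction, rests on a few counts. Cyp2b13 (chr7:26061388-26096197, plus strand), the close relative of Cyp2b9, stood at 350.1, 342.1, 424.7 and 407.1 CPM in WT libraries and had 0 counts in all 4 Cyp2b-null libraries. Against a floor of 3 counts per library it was at least 478-fold lower, and edgeR gave an adjusted p-value of 3.51e-09. The Cyp2b9 and Cyp2b13 transcripts shared 10.8% of their 50-base windows and no 150-base window, so short reads from one could be assigned to the other in part, and how reads with several matches were counted is not given in the sources used here.

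The pseudogene Gm29920 (chr7:26099561-26111069), which lies between Cyp2b13 and Cyp2b9, had 19, 5, 10 and 21 counts in WT libraries 1 to 4 and 0 counts in every Cyp2b-null library. It was at least 4.01-fold lower against the floor of 3 counts per library. It missed the filter on low counts, and edgeR gave an adjusted p-value of 3.72e-07 without that filter and of 0.000797 when genes reaching 1 CPM in 4 or more libraries were kept. Another pseudogene, Rnf170-ps (chr7:26071797-26075756), lies inside Cyp2b13 and was still counted in all null libraries, at 5.159, 6.408, 3.9 and 4.557 CPM against 7.801, 5.845, 4.068 and 10.04 CPM in WT. The groups overlapped, with a log2 fold change of -0.50 (SE 0.33, adjusted p = 0.944). Whether its reads come from this position was not tested.

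**Figure D2:**
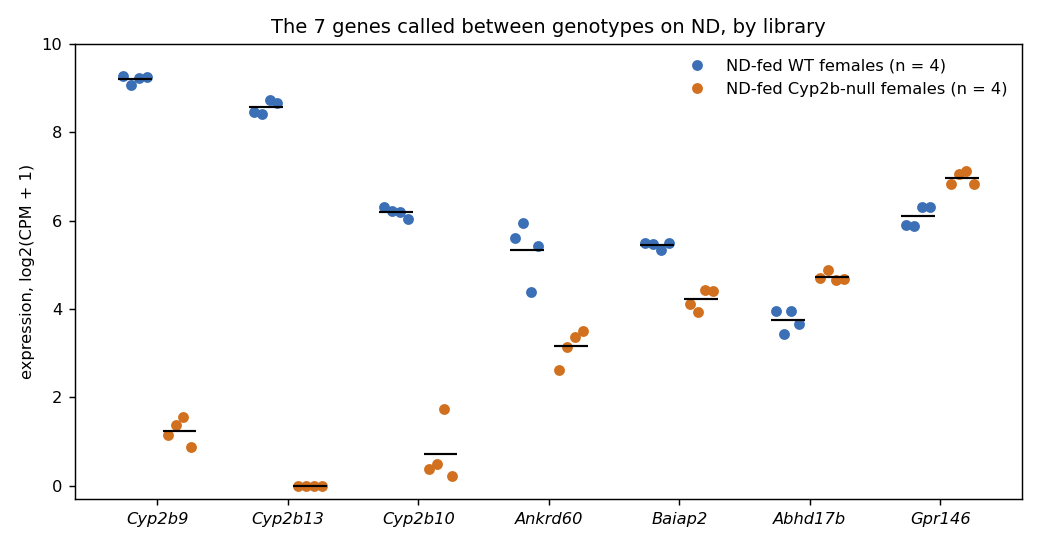
The y axis is log2(CPM + 1), each point is 1 library of ND-fed WT or Cyp2b-null females, the columns are the 7 called genes and the lines mark group means. In each gene the 4 points of one genotype lie wholly above the 4 of the other.

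Outside the deletion, Ankrd60 (chr2:173568658-173578273, minus strand) had the largest change among the called genes. It encodes a protein of ankyrin repeats. Its levels were 47.61, 60.79, 20 and 42.25 CPM in WT libraries 1 to 4 and 5.159, 7.81, 9.36 and 10.29 CPM in Cyp2b-null libraries 1 to 4. WT library 3 was the lowest of its group and was still above every null library. Ankrd60 fell from 42.7 ± 17 to 8.16 ± 2.25 CPM (SD, n = 4 each), a log2 fold change of -2.36 (SE 0.32, edgeR adjusted p = 0.0018). The ribosomal RNA entry Rn18s-rs5 was also lowest in WT library 3 (4141 CPM) and in Cyp2b-null library 1 (1005 CPM) of their groups. It was highest in WT library 1 and Cyp2b-null library 3, where Ankrd60 was not. The relation of Ankrd60 to how much ribosomal RNA remained in each library was not tested.

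Baiap2 (chr11:119939916-120006782, plus strand) encodes the membrane-curving adaptor IRSp53, which links small GTPases to the actin cytoskeleton. It stood at 44.21, 43.25, 39.32 and 43.81 CPM in WT and at 16.39, 14.22, 20.67 and 20.08 CPM in Cyp2b-null libraries 1 to 4. The WT values were nearly level and the null values were all below the lowest of them. Baiap2 fell from 42.7 ± 2.25 to 17.8 ± 3.07 CPM, a log2 fold change of -1.26 (SE 0.20, edgeR adjusted p = 0.00461). The annotated lncRNA Gm11767 overlaps Baiap2, and whether counting used strand is not given in the sources used here.

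Abhd17b (chr19:21653267-21685638, plus strand) encodes a serine hydrolase that removes palmitate from membrane proteins. It stood at 14.6, 9.742, 14.58 and 11.6 CPM in WT and at 24.89, 28.44, 24.18 and 24.81 CPM in Cyp2b-null libraries 1 to 4. The null libraries were all higher, with library 2 above the other 3. Abhd17b rose from 12.6 ± 2.39 to 25.6 ± 1.93 CPM, a log2 fold change of 1.01 (SE 0.16, edgeR adjusted p = 0.006). Without WT library 4 the adjusted p-value was 0.058.

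Gpr146 (chr5:139377697-139396415, plus strand) encodes an orphan G protein-coupled receptor known for its role in plasma cholesterol. It stood at 59.21, 57.67, 77.96 and 77.92 CPM in WT and at 113.2, 132.2, 138.1 and 112.6 CPM in Cyp2b-null libraries 1 to 4. WT libraries 1 and 2 lay below WT libraries 3 and 4, and every null library was above all of them. Gpr146 rose from 68.2 ± 11.3 to 124.0 ± 13.1 CPM, a log2 fold change of 0.86 (SE 0.16, edgeR adjusted p = 0.024). This call depended on single libraries: the adjusted p-value was 0.14 without WT library 1, 0.147 without WT library 2, 0.129 without Cyp2b-null library 2 and 0.11 without Cyp2b-null library 3. Gpr146 lies within 3110082I17Rik on the opposite strand, whose values were 3.401, 0.7793, 2.373 and 2.078 CPM in WT and 5.766, 3.404, 2.73 and 5.232 CPM in Cyp2b-null libraries, with overlap (log2 fold change 0.92, adjusted p = 0.836). Reads of the 2 genes cannot be told apart if strand was not used.

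The same genotype comparison was made in CDAHFD-fed females and in ND-fed males, each with 4 libraries per genotype. Among females, the genotype effect differed between the diets for 0 of 13226 genes (0%) by edgeR, with 823 at an unadjusted p-value under 0.05, and DESeq2 called 2, Ankrd60 and Abhd17b. Between the sexes on ND, edgeR called 1 of 14020 genes, Cyp2b9 (0.00713%), with 629 at an unadjusted p-value under 0.05, and DESeq2 called 5. In ND-fed males, 4 of 13460 genes were called (0.0297%), and of the 7 genes called in females Cyp2b10 alone was among them.

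Cyp2b9 fell in CDAHFD-fed females as well, with a log2 fold change of -7.89 (SE 0.30, edgeR adjusted p = 1.64e-14), from a WT level of 178.7 ± 60.9 CPM. In ND-fed males it had 0, 7, 4 and 15 counts in WT libraries, 1.22 ± 1.41 CPM, and 1.67 ± 0.607 CPM in Cyp2b-null libraries. The female effect minus the male effect was -9.40 (SE 0.99, edgeR adjusted p = 9.35e-06), with the WT males at or near the floor. Cyp2b13 had 144.3 ± 65.8 CPM in CDAHFD-fed WT females and at most 1 count in each of their null counterparts, and it had 0 counts in every ND-fed WT male. Cyp2b10 was present in WT males at 11.1 ± 3.72 CPM and fell to 0.463 ± 0.363 CPM in null males, a log2 fold change of -4.31 (SE 0.55, edgeR adjusted p = 0.000861). The pseudogene Gm29920 followed Cyp2b13, with 2 to 4 counts in CDAHFD-fed WT females and 0 counts in every male library.

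Ankrd60 was called in ND-fed females and in neither of the other comparisons. On CDAHFD it stood at 16.1 ± 2.70 CPM in WT and 19.3 ± 7.34 CPM in Cyp2b-null females, a log2 fold change of 0.24 (adjusted p = 0.887). The difference between the diets was 2.60 on the log2 scale (unadjusted p = 9.94e-06, edgeR adjusted p = 0.132), and without ND-fed WT library 3 it was called. In ND-fed males its level was 140 ± 62.5 CPM in WT and 103 ± 32.6 CPM in null mice (log2 fold change -0.44, adjusted p = 0.944). In CDAHFD-fed females the Rn18s-rs5 share of counts overlapped between genotypes, at 0.287% to 0.486% in WT and 0.198% to 0.531% in null libraries. Its relation to the Ankrd60 values was not tested. Abhd17b was 17.9 ± 0.206 CPM in WT and 16.5 ± 2.47 CPM in Cyp2b-null females on CDAHFD (log2 fold change -0.11, adjusted p = 0.898), and the difference between the diets was -1.12 (unadjusted p = 5.28e-05, edgeR adjusted p = 0.349). In males on ND it was 15.4 ± 3.17 CPM in WT and 25.4 ± 3.82 CPM in null mice, a log2 fold change of 0.72 (unadjusted p = 0.000333, edgeR adjusted p = 0.129).

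Gpr146 in males on ND was 94.2 ± 30.0 CPM in WT and 143.9 ± 29.0 CPM in null mice (log2 fold change 0.61, edgeR adjusted p = 0.376), while on CDAHFD its log2 fold change in females was 0.03 (adjusted p = 0.974). Baiap2 had a log2 fold change of -0.38 in females on CDAHFD (adjusted p = 0.833) and of -0.05 in males on ND (adjusted p = 0.975). The difference between the diets reached an unadjusted p-value of 0.00345 for Baiap2 and of 0.000905 for Gpr146, and neither passed the adjustment (both 0.759).

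**Figure D3:**
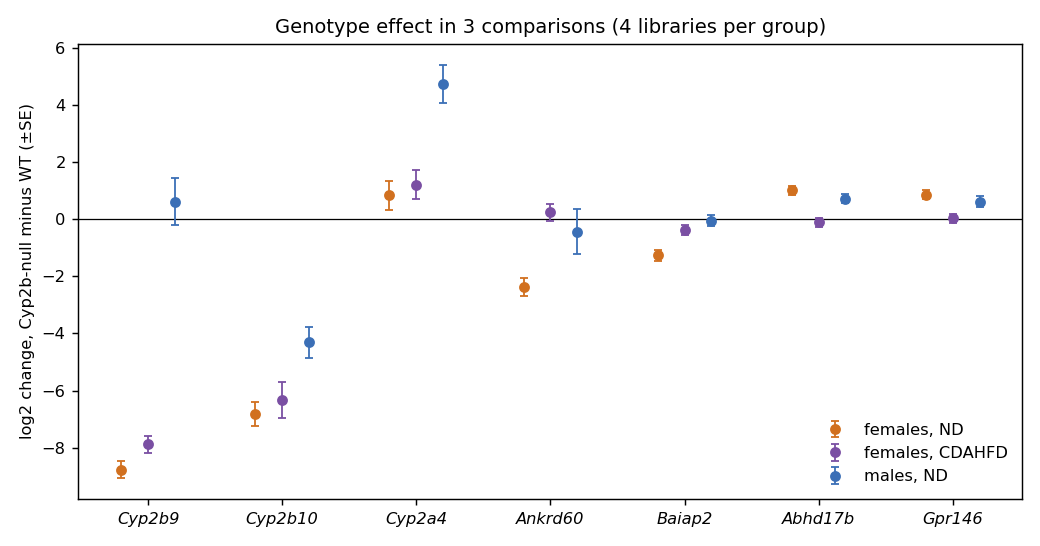
The y axis is the log2 fold change of Cyp2b-null over WT with its SE, for 7 genes in ND-fed females, CDAHFD-fed females and ND-fed males. Cyp2b9 falls in females on either diet and not in males, and the Ankrd60, Baiap2, Abhd17b and Gpr146 points of CDAHFD-fed females lie closer to 0 than those of ND-fed females.

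Of the genes next in order of p-value, which did not pass the adjustment, 4 are described. Sult2a7, a hydroxysteroid sulfotransferase with female-predominant expression, stood at 14.8, 26.89, 18.64 and 15.41 CPM in WT and at 9.105, 6.809, 7.02 and 4.557 CPM in Cyp2b-null libraries 1 to 4. Every null library was below every WT library (log2 fold change -1.47, SE 0.32, edgeR adjusted p = 0.184). Sult2a7 was called by DESeq2 and by edgeR on the 8 ND-fed libraries alone (adjusted p = 0.0307). Ak4, a mitochondrial adenylate kinase, stood at 48.41, 61.18, 81.69 and 77.23 CPM in WT and at 124.7, 190, 98.28 and 112.6 CPM in Cyp2b-null libraries, without overlap (0.97, SE 0.21, adjusted p = 0.186). Capn15, a calpain, ranged from 16.76 to 24 CPM in WT and from 9.105 to 12.02 CPM in Cyp2b-null libraries (-0.90, SE 0.20, adjusted p = 0.186). The groups were separate in Sult2a7, Ak4 and Capn15, a separation that 3.64% of all genes tested also showed. Ddc, aromatic amino acid decarboxylase, overlapped through Cyp2b-null library 3, at 57.33 CPM against 24.23 to 34.6 CPM in the other null libraries and 56.11 to 79.61 CPM in WT (-1.001, SE 0.22, adjusted p = 0.186), and without that library its adjusted p-value was 0.00418. DESeq2 also called Ak4, Capn15 and Ddc.

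Of 16 listed neighbours of the deleted genes in the table, 10 passed the filter on low counts, the P450 genes Cyp2a4, Cyp2a5, Cyp2a12, Cyp2a22, Cyp2f2 and Cyp2g1 and the unrelated genes Egln2, Rab4b, Snrpa and Itpkc. With that filter, edgeR called none of these 10, and 0 reached an unadjusted p-value under 0.05. Their median log2 fold change was -0.04, beside -0.01 over all genes tested. Cyp2a4 (chr7:26307192-26315088, plus strand), a female-predominant steroid hydroxylase and the nearest expressed P450 gene downstream of Cyp2b9, stood at 571.9, 909.5, 845.1 and 915.1 CPM in WT and at 1917, 1591, 1040 and 1261 CPM in Cyp2b-null libraries 1 to 4. All null libraries were higher, yet they spread widely, and the log2 fold change of 0.84 (SE 0.51, approximate 95% interval -0.15 to 1.84) did not pass the test (edgeR adjusted p = 0.926). Without the low-count filter edgeR called 122 genes, among them Cyp2a4 (adjusted p = 5.65e-05). In ND-fed males Cyp2a4 rose from 3.26 ± 1.17 to 85.9 ± 48.1 CPM, by 4.74 on the log2 scale (SE 0.67, edgeR adjusted p = 0.034). The female minus the male effect was -3.89 (unadjusted p = 0.000117, edgeR adjusted p = 0.549), and DESeq2 called this difference.

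Cyp2a5, which hydroxylates coumarin and shares 36.1% of the 50-base windows of Cyp2a4, stood at 551.7, 643.7, 1501 and 1344 CPM in WT and at 2116, 1038, 1251 and 613.3 CPM in Cyp2b-null libraries. The groups overlapped throughout (log2 fold change 0.31, SE 0.44, adjusted p = 0.978), and reads of Cyp2a4 and Cyp2a5 could be split between them. Cyp2f2, a P450 that activates naphthalene, ranged from 786.8 to 962.9 CPM in WT and from 824.8 to 996.9 CPM in Cyp2b-null libraries, with an interval of -0.23 to 0.27 for its log2 fold change of 0.02. Cyp2a12, a P450 that hydroxylates steroids, had a log2 fold change of -0.06 (interval -0.30 to 0.17), Cyp2a22 of -0.31 (interval -0.86 to 0.23) and Cyp2g1, best known from olfactory tissue, of -0.95 (interval -1.93 to 0.03), all with overlap. The remaining Cyp2b genes, Cyp2b19 of the skin and Cyp2b23, had at most 1 count in any of the 8 libraries. At this depth no rise of another Cyp2b gene in place of the deleted ones was detectable.

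**Figure D4:**
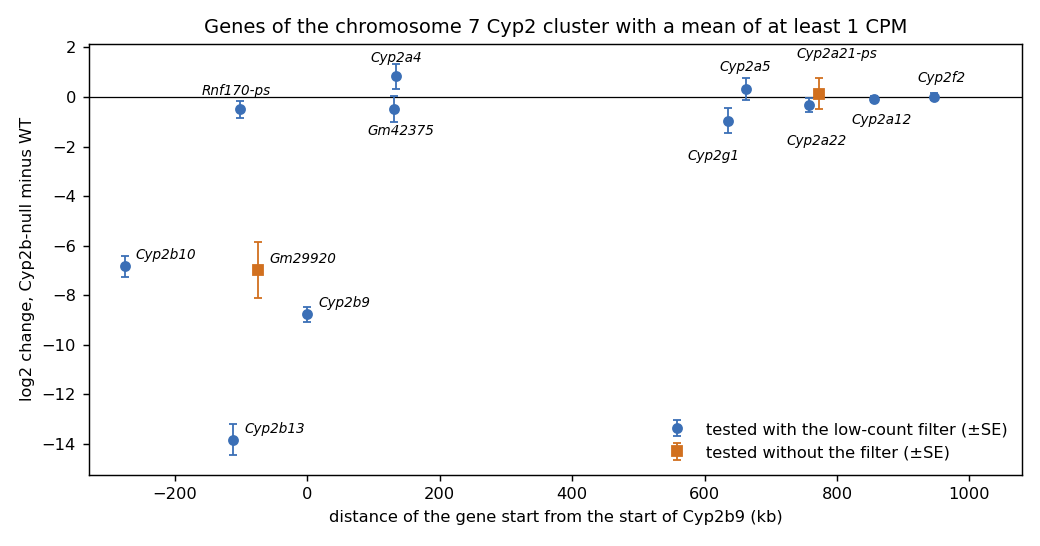
The x axis is the distance in kb from the start of Cyp2b9 and the y axis is the log2 fold change with its SE in ND-fed females, for genes of the cluster at 1 CPM or more. Circles passed the filter on low counts and squares come from the fit without it, the 3 deleted genes and Gm29920 lie far below 0, and the fitted values of Cyp2b13 and Gm29920 depend on the small count added in the fit.

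The gene families and pathways were then described list by list. Outside the deleted genes edgeR, fitted to all 16 female libraries with the low-count filter, called 0 members of any list. The counts are therefore of directions and of unadjusted p-values under 0.05, which 5.63% of all genes tested reached. Among the other P450 enzymes of families 1 to 3, 18 of 36 tested members were higher, with a median of 0.00, and 4 had an unadjusted p-value under 0.05, all lower. Cyp3a16, a female-predominant enzyme of the Cyp3a subfamily, stood at 24.2, 81.83, 136.9 and 88.14 CPM in WT and at 17.6, 1.202, 16.77 and 8.101 CPM in Cyp2b-null libraries. The null values were all lower and both groups spread widely (log2 fold change -3.02, SE 0.59, adjusted p = 0.2). Cyp3a16 was called by DESeq2 (adjusted p = 0.017) and by edgeR without WT library 1 (adjusted p = 0.0201). Cyp3a44 overlapped, at 66.49 to 125.9 CPM in WT and 12.02 to 71.76 CPM in Cyp2b-null libraries (-1.19, adjusted p = 0.852). Reads of near-identical Cyp3a genes may have been split between them. For the Cyp4 fatty acid hydroxylases 10 of 12 were higher, with a median of 0.24 and 0 at an unadjusted p-value under 0.05, and the 2 with the lowest p-values were Cyp4b1 (0.38, adjusted p = 0.92) and Cyp4f13 (0.24, adjusted p = 0.949).

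CAR and the pregnane X receptor induce drug-metabolizing enzymes together, and of their 32 tested targets and the receptors themselves 13 were higher, with a median of -0.05 and 0 at an unadjusted p-value under 0.05. Ugt2b35 (0.33, adjusted p = 0.89) and Aldh1a7 (-0.32, adjusted p = 0.9) had the lowest p-values, in opposite directions. The phase II conjugating enzymes had 18 of 49 higher and a median of -0.10, and Sult3a1 (-0.63, SE 0.21, adjusted p = 0.649) came after Sult2a7 in this list. NRF2 targets, the oxidant defence genes, had 7 of 18 higher with a median of -0.04. For the epoxide hydrolases and eicosanoid enzymes, which take over lipid products of P450 enzymes, 9 of 16 were higher with a median of 0.05. The phospholipase Pla2g6 had the lowest p-value there, at 24.8, 29.61, 22.37 and 29.78 CPM in WT and 32.78, 56.67, 26.13 and 46.58 CPM in Cyp2b-null libraries (0.63, SE 0.20, adjusted p = 0.636), with overlap through null library 3.

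Sex-biased liver genes were examined because Cyp2b9 and Cyp2b13 belong to the female program that the sex-specific pattern of growth hormone release sets. Of 34 female-biased genes, without the deleted ones, 10 were higher, with a median of -0.19, and 6 had an unadjusted p-value under 0.05, all lower. Sult2a7 and Cyp3a16 led these, and both are described above. Of 25 male-biased genes 19 were higher, with a median of 0.16, and 2 had an unadjusted p-value under 0.05, both higher. These were the urinary protein gene Mup21, at 1.695 to 2.8 CPM in WT and 2.194 to 7.209 CPM in null libraries, and Nudt7, a peroxisomal coenzyme A diphosphatase, at 76.37 to 161.2 CPM in WT and 134.2 to 198.1 CPM in null libraries. Both overlapped (adjusted p = 0.852 each). The mean of the female-biased list per library, relative to the 8 libraries, was -0.22 to 0.37 in WT and -0.59 to 0.08 in null libraries. That of the male-biased list was -0.36 to 0.13 in WT and -0.03 to 0.27 in null libraries, so the genotypes overlapped in both lists. With each library left out in turn, the median of the female-biased list ranged from -0.29 to -0.10 and that of the male-biased list from 0.07 to 0.22. The growth hormone, STAT5 and IGF genes had 13 of 20 higher and a median of 0.03.

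In lipid metabolism, 35 of 38 fatty acid oxidation and ketogenesis genes were higher in Cyp2b-null females, with a median of 0.17, and 3 had an unadjusted p-value under 0.05, all higher. Ppara, the fasting-activated receptor that drives these genes, stood at 216, 387.3, 236.9 and 267.7 CPM in WT and at 387.6, 453.6, 328.8 and 442.3 CPM in null libraries (log2 fold change 0.54, SE 0.20, adjusted p = 0.83). WT library 2, the library that stood apart on the second principal component, overlapped the null range, and the other 3 WT libraries were below it. The mean of the list relative to the 8 libraries was 0.40 in WT library 2 and between -0.39 and -0.09 in the other WT libraries, and in the null libraries it was 0.29 and 0.39 in 2 of them and -0.15 and -0.13 in the other two. The median was 0.33 without WT library 2 and 0.08 without Cyp2b-null library 4, in which 30 of 38 were higher.

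The lipid droplet and fatty acid uptake genes had 17 of 27 higher and a median of 0.15. Pparg, the adipogenic nuclear receptor, stood at 12.2, 11.69, 11.86 and 11.08 CPM in WT and at 19.42, 16.02, 14.43 and 16.54 CPM in null libraries, without overlap (log2 fold change 0.51, SE 0.18, adjusted p = 0.776). Cd36, the fatty acid translocase, stood at 114.6, 127, 126.1 and 115.5 CPM in WT and at 200.3, 128.6, 136.9 and 150 CPM in null libraries, also without overlap (0.35, SE 0.15, adjusted p = 0.852). Null library 2 lay barely above the highest WT value of Cd36. De novo lipogenesis had 14 of 28 higher and a median of 0.00, with Agpat2 at -0.39 and Pnpla3 at -1.15 (adjusted p = 0.837 and 0.842). Apolipoproteins (11 of 23 higher, median -0.02), cholesterol synthesis (15 of 24, 0.02) and bile acid synthesis and transport (15 of 30, -0.02) had medians near that of all genes. In the bile acid list Nr0b2, the small heterodimer partner that represses Cyp7a1, stood at 53.61, 80.27, 52.88 and 34.63 CPM in WT and at 29.44, 21.43, 33.54 and 29.7 CPM in null libraries, just without overlap (-0.95, SE 0.35, adjusted p = 0.837).

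Glucose and glycogen genes had 14 of 30 higher and a median of -0.01, with opposite values for the 2 lowest p-values. Gys2, the liver glycogen synthase, stood at 114.8, 182.4, 176.9 and 166.7 CPM in WT and at 281.9, 349.3, 204.7 and 232.2 CPM in null libraries (log2 fold change 0.74, SE 0.23, adjusted p = 0.635). Ppp1r3b, which brings a phosphatase to glycogen, stood at 184, 364.7, 227.8 and 275 CPM in WT and at 165.1, 119.2, 179.8 and 157 CPM in null libraries (-0.76, SE 0.26, adjusted p = 0.791). Neither gene overlapped between genotypes. Circadian clock genes had 14 of 19 higher and a median of 0.21, with Nr1d2, a clock repressor, at 85.81 to 108.5 CPM in WT and 110.2 to 157.9 CPM in null libraries (0.53, SE 0.16, adjusted p = 0.635) and Bhlhe40 at 84.21 to 131.3 CPM in WT and 147.2 to 164.5 CPM in null libraries (0.50, SE 0.21, adjusted p = 0.852). Neither clock gene overlapped, and the hour at which each liver was taken is not given in the sources used here.

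Genes that glucocorticoids induce had 3 of 21 higher and a median of -0.44, and 6 had an unadjusted p-value under 0.05, all lower. Klf15, a fasting-responsive transcription factor, stood at 183.2, 302.8, 244.7 and 212.3 CPM in WT and at 193, 180.2, 182.9 and 140.4 CPM in null libraries (log2 fold change -0.44, SE 0.17, adjusted p = 0.837). Tat, tyrosine aminotransferase, stood at 1804, 3669, 2782 and 2355 CPM in WT and at 2099, 817.1, 1712 and 612.5 CPM in null libraries (-1.02, SE 0.38, adjusted p = 0.837). In both genes WT library 1 lay in the null range. WT library 2 was the highest for both, and the list had its highest mean of the 8 there, 0.85 against -0.32 to 0.21 in the other WT libraries. Without that library 9 of 21 were higher and the median was -0.20.

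Amino acid catabolism and the urea cycle had 7 of 27 higher and a median of -0.14, with 7 at an unadjusted p-value under 0.05, all lower. Got1, the cytosolic aspartate aminotransferase, stood at 253.8, 345.2, 495.6 and 392.5 CPM in WT and at 286.2, 188.4, 250 and 181.3 CPM in null libraries (log2 fold change -0.72, SE 0.19, adjusted p = 0.467). Hal, histidine ammonia-lyase, stood at 456.5, 388.9, 549.5 and 665.3 CPM in WT and at 305.6, 332.4, 423.9 and 296.4 CPM in null libraries (-0.60, SE 0.17, adjusted p = 0.521). A single library kept the groups from separating in each, null library 1 in Got1 and null library 3 in Hal. Choline, methionine and one-carbon genes had 2 of 21 higher and a median of -0.19. Bhmt, which remethylates homocysteine with betaine, stood at 856.9, 1020, 2968 and 2873 CPM in WT and at 1305, 489.4, 962.1 and 805.4 CPM in null libraries (-1.12, SE 0.42, adjusted p = 0.837). WT libraries 3 and 4 were above every other library, and WT libraries 1 and 2 lay within the null range. Nuclear-encoded respiratory chain subunits had 11 of 50 higher with a median of -0.08, and 1 had an unadjusted p-value under 0.05, Cox7c (-0.49, SE 0.19, adjusted p = 0.837).

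Interferon response genes had 5 of 37 higher and a median of -0.28, and 8 had an unadjusted p-value under 0.05, all lower. Gbp3, a guanylate-binding GTPase, stood at 13.8, 21.82, 27.12 and 25.63 CPM in WT and at 14.26, 10.41, 9.75 and 15.19 CPM in null libraries (log2 fold change -0.81, SE 0.23, adjusted p = 0.521). Irgm1, an immunity-related GTPase, stood at 15.2, 18.7, 24.74 and 20.61 CPM in WT and at 13.96, 12.22, 13.26 and 12.49 CPM in null libraries, without overlap (-0.61, SE 0.18, adjusted p = 0.635). For both, WT library 1 was the lowest of its group. It lay within the null range for Gbp3, where the groups overlapped, and just above the null values for Irgm1.

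The MHC genes, which present antigen, had 1 of 17 higher, a median of -0.29 and 3 at an unadjusted p-value under 0.05, all lower. Their summed level was 3698 to 4497 CPM in WT and 3363 to 3647 CPM in null libraries, without overlap. H2-D1, of class I, stood at 227.6, 214.3, 228.5 and 231 CPM in WT and at 192.4, 196.3, 159.1 and 178.9 CPM in null libraries (-0.31, SE 0.12, adjusted p = 0.837). H2-Aa, of class II, overlapped, at 16.62 to 35.93 CPM in WT and 10.14 to 18.82 CPM in null libraries (-0.59, SE 0.23, adjusted p = 0.837). The summed Kupffer cell and macrophage markers were 599.1 to 920 CPM in WT and 556.5 to 872.8 CPM in null libraries, with overlap. Of these 12 markers 9 were higher in the null group, with a median log2 fold change of 0.03 and 0 at an unadjusted p-value under 0.05. The part of any cell type in the MHC values was not tested. The interferon median ranged from -0.41 to -0.22 and the MHC median from -0.35 to -0.19 with each library left out in turn. Acute phase proteins had 8 of 25 higher, with a median of -0.07, and fibrosis and matrix genes had 16 of 26 higher, with a median of 0.05.

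Among stress and growth lists, the immediate early genes had 12 of 16 higher and a median of 0.57. Egr1, a transcription factor that is induced within minutes by growth factors, stood at 17.6, 30, 11.53 and 15.41 CPM in WT and at 3.945, 76.5, 85.41 and 76.11 CPM in null libraries (log2 fold change 1.73, SE 0.65, adjusted p = 0.837). Null library 1 was the lowest of all 8 and the other 3 null libraries the highest. Without null library 3 the list's median was 0.10. Endoplasmic reticulum stress genes (9 of 22 higher, median -0.06), heat shock genes (7 of 12, 0.10) and cell cycle genes (14 of 23, 0.08) had 0, 1 and 2 members at an unadjusted p-value under 0.05.

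**Figure D5:**
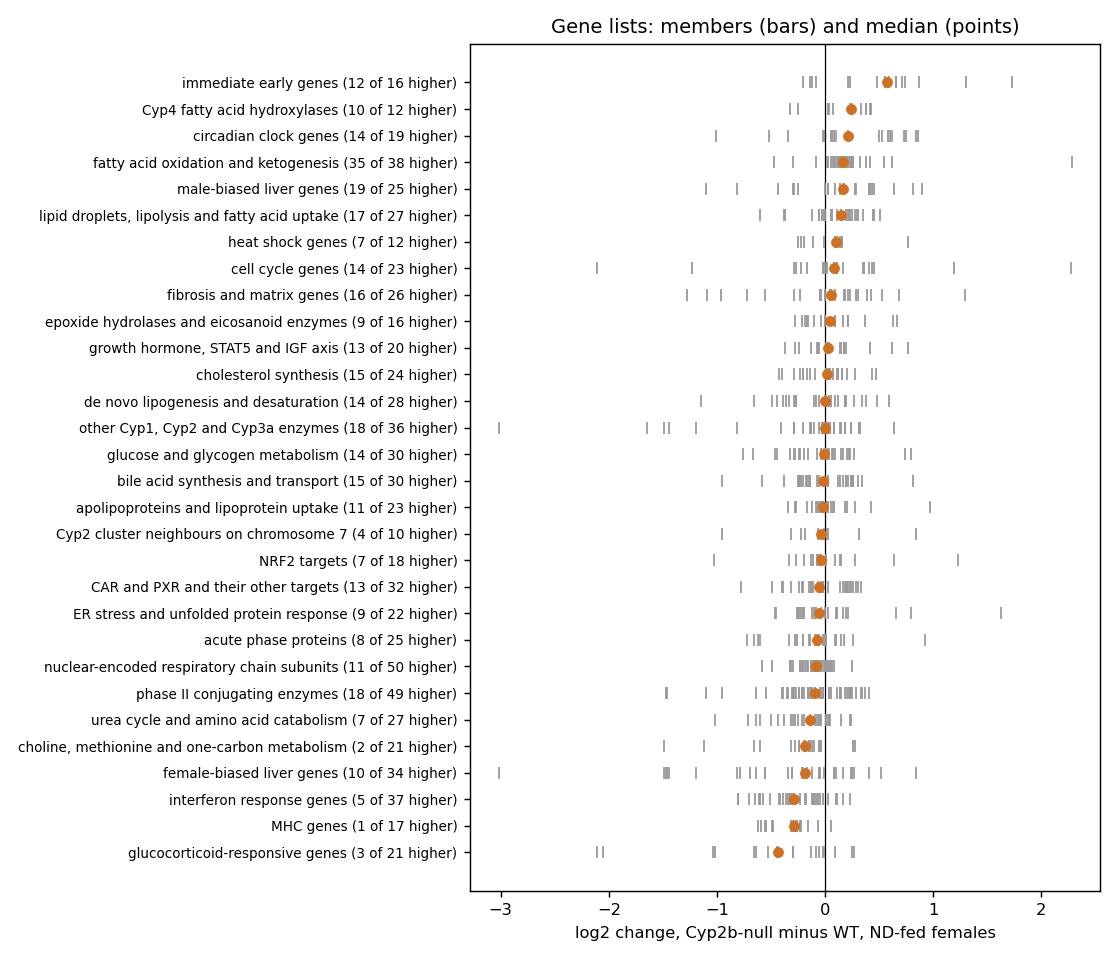
Each row is a gene list, the grey bars are the log2 fold changes of its tested members in ND-fed females and the orange point is their median. Most medians lie near 0, with the glucocorticoid-responsive, interferon and MHC lists lowest and the immediate early list highest.

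Several genes outside the lists were chosen for mention after their values were seen. Rn18s-rs5, an 18S ribosomal RNA-like entry, stood at 9674, 9531, 4141 and 6759 CPM in WT and at 1005, 1640, 2619 and 2469 CPM in null libraries, without overlap (log2 fold change -1.96, SE 0.42, edgeR adjusted p = 0.266). Lars2, the mitochondrial leucyl-tRNA synthetase, followed, at 974.1, 580.6, 514.9 and 631.7 CPM in WT and 136, 195.9, 253.1 and 337.4 CPM in null libraries (-1.55, SE 0.39, adjusted p = 0.521). Both were lower in every null library, both were called by DESeq2, and their relation to how much ribosomal RNA remained in each library was not tested. Dsc2, a desmosomal cadherin, ranged from 73.81 to 81.44 CPM in WT and from 109.3 to 138.1 CPM in null libraries (0.69, SE 0.16, adjusted p = 0.24). Slc35e2, of a nucleotide sugar transporter family, ranged from 95.86 to 101.8 CPM in WT and from 53.72 to 72.54 CPM in null libraries (-0.67, SE 0.16, adjusted p = 0.265). WT values were tight in both Dsc2 and Slc35e2, and edgeR called both when only the 8 ND-fed libraries were fitted.

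Wee1, the mitotic kinase whose transcription follows the clock, stood at 2.6, 5.066, 4.407 and 8.138 CPM in WT and at 33.99, 22.83, 18.72 and 10.46 CPM in null libraries (2.03, SE 0.43, adjusted p = 0.215). Ddit4, a stress- and glucocorticoid-induced inhibitor of mTOR, stood at 7.201, 24.94, 20.68 and 18.53 CPM in WT and at 4.552, 5.808, 5.85 and 3.713 CPM in null libraries (-1.82, SE 0.44, adjusted p = 0.364). In both genes all null libraries lay on one side of all WT libraries, and DESeq2 called both. By edgeR, Wee1 was called without Cyp2b-null library 4 (adjusted p = 0.0208) and Ddit4 without WT library 1 (adjusted p = 0.0336).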

How the data were processed

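Liver RNA was measured by bulk RNA sequencing, with 4 libraries in each of 8 groups of diet, genotype and sex. The authors trimmed reads with Trimmomatic, aligned them to GRCm38.p6 with GSNAP and counted them with Subread featureCounts, per the labels and the study's methods, and tool versions and settings for strand and repeated matches are not given in the sources used here. The deposited values are raw counts per gene, 1 table for each sex. Sequencing depth on genes, 2906411 to 6563183 counts, limits precision for low genes.

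Counts were filtered with filterByExpr (smallest count 10, smallest total 15), TMM-scaled and fitted by edgeR 4.0.16 (R 4.3.3; glmQLFit, robust, and glmQLFTest) to the 16 female libraries in 4 groups, with contrasts for genotype on ND and its difference between the diets. Males were fitted likewise, and the sexes were compared in 1 fit of 8 groups. The Benjamini-Hochberg adjustment ran over every gene tested, and genes under 0.05 were called. Genes below the filter come from a fit without it, whose spread is not specific to a gene at the median gene. CPM are TMM-scaled, fold changes are edgeR's fitted values with its default prior count, and an SE is the fold change over the root of its F statistic. The mean of a list in a library is the mean over its tested genes of log2(CPM + 1) centred over the 8 libraries. Alternatives were DESeq2 1.42.0, RLE or no scaling factors, other filters, only the ND-fed libraries, a replicate block and leaving out each ND-fed female library, and list medians under these were added after the data were seen. The fit was tested on simulated data.

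The members and lists were chosen with earlier results of these data known. Named genes are the P450 genes of the cluster, called genes (at least 1 CPM, no overlap), the genes next in p-value up to 20, and called members or else the 2 lowest p-values of a list. Arntl was added as the lower clock gene with the lowest p-value. Sequences are RefSeq windows of GRCm38.p6, and 206 of 208 named genes had a position. No count column was left unused (0). Some results are not reported here.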

Additional observations from a re-analysis of the deposited data

Results flagged for a closer look

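The fall of Cyp2b9 differed between the sexes on ND: the female minus the male log2 fold change was -9.40 (edgeR adjusted p = 9.35e-06), with WT levels of 589.7 CPM in females and 1.22 CPM in males.

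In 9 of 170 groups of 4 libraries examined for the named genes, Arntl not among them, 1 library lay beyond Dixon's 95% critical value. Chance gives about 1 in 20. Cyp2b10 was 2.34 CPM in Cyp2b-null library 3 and 0.1688 to 0.4005 CPM in the others. Cyp2b19 and Cyp2t4 were each 0.1688 CPM, 1 count, in Cyp2b-null library 4 and 0 in the others. Abhd17b was 28.44 CPM in Cyp2b-null library 2 against 24.18 to 24.89 CPM. Cyp3a44 was 125.9 CPM in WT library 2 against 66.49 to 72.54 CPM. Mup21 was 1.695 CPM in WT library 3 against 2.728 to 2.8 CPM. Igfbp4 was 1702 CPM and Bhlhe40 164.5 CPM in Cyp2b-null library 4, against 1929 to 1967 CPM and 147.2 to 149.8 CPM. Egr1 was 3.945 CPM in Cyp2b-null library 1 against 76.11 to 85.41 CPM.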

How the results depend on the processing

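The 7 genes called in ND-fed females were 21 with DESeq2, 122 without the low-count filter and 11 without the CDAHFD-fed Cyp2b-null library 3, and 7 to 10 under the other alternatives outside the fits that left out an ND-fed library. All 7 calls were among those of DESeq2. Of the 122, 119 were tested with the filter and 7 called there. Prior degrees of freedom are the weight on the spread shared between genes. Their median was 11.3 with the filter and infinite without it. Leaving out each ND-fed female library gave 6 to 9 calls, and 5 of the 7 held in all 8 fits. Gpr146 was lost without WT library 1 or 2 or Cyp2b-null library 2 or 3, and Abhd17b without WT library 4. The difference between the diets had 2 calls with DESeq2 and 46 without the filter, and 0 to 1 with a library left out. The difference between the sexes had 5 with DESeq2 and 63 without the filter, and 1 to 2 with a library left out (Gbp6 added without Cyp2b-null library 4). With a library left out, the log2 fold change of Cyp2a5 ranged from -0.0633 to 0.566 and that of Cyp2f2 from -0.0352 to 0.0636, and neither was called. The replicate block on the 8 ND-fed libraries gave 10 calls, without Ankrd60 (adjusted p = 0.0608) and Abhd17b (0.0527). Same-numbered libraries correlated at -0.16, 0.18, 0.15 and -0.11 over 8154 genes, and differently numbered ones at -0.2453 to 0.2672. The same-numbered values lay within that range, so this check cannot decide whether the numbers pair mice. The causes of the differences between settings were not tested. With 4 libraries per genotype and 2906411 counts in the shallowest, small changes in low genes were not detectable.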
